A study of Mus musculus with 8 samples.

Results

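The neuronal nicotinic acetylcholine receptor subunits are the 10 genes Chrna2, Chrna3, Chrna4, Chrna5, Chrna6, Chrna7, Chrna9, Chrnb2, Chrnb3 and Chrnb4, picked out on the arrays by their gene symbols. All 10 of them are among the 22485 genes named on the arrays, where they are read by 19 of 33026 named spots, 10 of them copies for Chrna7 and 1 for each other subunit. RNA of the mouse adrenal medulla, dissected away from the cortex, was hybridised to 8 two-colour Agilent arrays. The 4 SDHD-ESR arrays held RNA of male mice with 1 floxed and 1 deleted SdhD allele and a Cre recombinase fused to a tamoxifen-dependent estrogen receptor domain. The 4 +/- arrays held RNA of males with the same SdhD alleles and no Cre. Every array carried 2 mice in the Cy5 channel and, in the Cy3 channel, the same pool of 8 +/+ mice, which had 1 floxed and 1 intact SdhD allele and no Cre. All mice were on a 129/SvJ background, received 100 µg/g tamoxifen daily for 4 days from 9 weeks of age according to the labels, and were sampled 7 days after the first injection. The mice behind a group were pooled in pairs, and the deletion is an acute one in adult animals. The study followed it in several organs, and the sources used here do not name the promoter that drives the Cre, so chromaffin cells alone should not be taken as its target.

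Nicotinic receptors are cation channels of 5 subunits that open when acetylcholine binds. In the adrenal medulla the preganglionic splanchnic nerve releases acetylcholine onto chromaffin cells, and the receptors there depolarise the cell and start catecholamine release. Receptors that hold the α3 and β4 subunits, with or without α5, are the main kind in chromaffin cells and autonomic ganglia, α4 and β2 form the commonest kind in the brain, α6 and β3 are found in catecholamine neurons and the retina, and α7 and α9 can form channels by themselves. Chrna5, Chrna3 and Chrnb4 lie side by side on mouse chromosome 9, and Chrnb3 and Chrna6 are neighbours on chromosome 8 (gene order from RefSeq, GRCm38.p6). Sdhd, the gene deleted here, is on chromosome 9 as well.

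RefSeq held a promoter window, from 250 bases before to 50 bases after a gene's start, for 7 of the 10 genes. The windows of the pair Chrna3 and Chrnb4 are shown because their subunits make up the main receptor of the tissue, that of Chrna7 because it is the subunit with the most measurements, and that of Chrna9 because its ratios lay farthest below the pool in both groups. They lie at chr9:55026513-55026812 (minus strand), chr9:55048495-55048794 (minus strand), chr7:63212477-63212776 (minus strand) and chr5:65966874-65967173 (plus strand) of GRCm38.p6. Each is printed from 5′ to 3′, and capitals mark 3 motifs searched on both strands, the GC box GGGCGG (in 35.7% of all 32851 promoter windows), the E-box CAGCTG (16.3%) and the cores ACGTG and GCGTG of the hypoxia response element (43.8%).
Chrna3: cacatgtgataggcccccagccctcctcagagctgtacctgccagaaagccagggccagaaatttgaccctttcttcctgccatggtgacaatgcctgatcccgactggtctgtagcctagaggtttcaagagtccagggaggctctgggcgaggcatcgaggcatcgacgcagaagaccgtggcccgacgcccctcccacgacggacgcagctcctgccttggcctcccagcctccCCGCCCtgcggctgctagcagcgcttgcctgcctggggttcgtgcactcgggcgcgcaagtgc
Chrnb4: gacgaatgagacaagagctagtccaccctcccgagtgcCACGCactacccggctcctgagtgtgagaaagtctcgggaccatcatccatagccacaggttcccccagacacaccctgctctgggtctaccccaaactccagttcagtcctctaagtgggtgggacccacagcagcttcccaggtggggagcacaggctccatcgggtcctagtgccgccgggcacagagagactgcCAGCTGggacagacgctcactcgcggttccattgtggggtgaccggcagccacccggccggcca
Chrna7: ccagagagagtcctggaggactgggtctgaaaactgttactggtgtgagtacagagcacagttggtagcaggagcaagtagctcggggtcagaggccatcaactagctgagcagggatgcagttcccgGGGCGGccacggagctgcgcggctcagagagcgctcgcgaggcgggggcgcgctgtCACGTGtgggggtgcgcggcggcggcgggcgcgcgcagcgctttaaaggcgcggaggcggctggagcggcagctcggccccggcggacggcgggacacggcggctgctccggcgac
Chrna9: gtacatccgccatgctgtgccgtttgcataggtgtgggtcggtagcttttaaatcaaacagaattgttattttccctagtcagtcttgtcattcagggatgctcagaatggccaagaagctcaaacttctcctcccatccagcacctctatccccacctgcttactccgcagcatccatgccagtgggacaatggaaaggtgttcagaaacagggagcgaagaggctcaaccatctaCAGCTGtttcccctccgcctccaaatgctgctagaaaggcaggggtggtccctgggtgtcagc
The Chrna3 window held 1 GC box, that of Chrnb4 held 1 E-box and 1 hypoxia core, that of Chrna7 held 1 GC box and 1 stretch in which the hypoxia core stands on both strands and overlaps itself, and that of Chrna9 held 1 E-box. Of the others, Chrna4 held 3 GC boxes, Chrnb2 held 1 GC box and 1 hypoxia core, and Chrna5 held 4 GC boxes at 1 of its starts and no motif at the other. A match describes the letters only.

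The values are log2 ratios to the +/+ pool. The sign of the deposited values was turned so that ratios above 0 stand for RNA in excess of the pool, since the methods describe the ratio as Cy5 to Cy3 while the deposited values for Sdhd in SDHD-ESR run from 4.86 to 6.19. After turning, Sdhd read -5.00, -6.19, -5.26 and -4.86 on SDHD-ESR arrays 1 to 4 and -1.10, -2.25, -0.74 and -0.29 on +/- arrays 1 to 4, so the groups did not overlap (difference -4.23, p = 0.0286 in a two-sided exact permutation test, which 4 against 4 arrays cannot undercut). A test against the pool leaves out the spread among +/+ mice and keeps any dye bias, because no dye was swapped, while dye bias cancels in SDHD-ESR minus +/-. The median ratio over all named spots ran from -0.20 to 0.36 between arrays. Whole numbers, which fill 9.54% to 15.6% of an array and reach sizes that no log ratio can have, were left out, although a small one, such as 1, could be a true ratio. On SDHD-ESR replicate 1 the values in 39.8% of the lines of the grid sit 1 line away from their spots, those in 15.0% of the lines are mixed, and the other 45.1% are in place. Over the shifted lines the correlation with the other arrays was 0.02 in place and 0.44 after moving back by 1 line. Chrna3, Chrnb2, Chrnb3 and 3 copies of Chrna7 lie in the shifted lines, and Chrna6 and 2 copies of Chrna7 in the mixed lines, so their value on that array may belong to another spot, and each is given below with the value moved back where the lines are shifted.

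The deposited ratios also give a sign of which spots may have been dim. On each array 30.0% to 37.2% of the ratios equal, to all digits deposited, the ratio of a pair of whole numbers no larger than 200, as a spot with few fluorescence units per channel gives. The pairs are in lowest terms, so the units themselves are not known. All 7 ratios of Chrna5, all 6 of Chrna9, 4 of 5 of Chrnb3, 3 of 6 of Chrna3, 3 of 7 of Chrnb4 and 36 of 73 of Chrna7 were of this kind, against 0 of 8 for Chrna2 and for Chrna4, 1 of 8 for Chrnb2 and 2 of 8 for Chrna6. Such ratios had a lower median than the rest on every array, for example -0.68 against -0.09 on +/- replicate 1, -0.09 against 0.44 on +/- replicate 4 and -0.17 against 0.10 on SDHD-ESR replicate 4. The ratios hold no level of expression, so the subunits are not ranked against each other.

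No subunit passed the test between the groups. Of the 15 member spots with at least 3 values in each group, which read 7 genes, 0 had an adjusted p of 0.05 or less for SDHD-ESR minus +/- (limma, Benjamini-Hochberg over 28073 spots), and 0% of all spots did. At an unadjusted p of 0.05 or less there was 1 of 15 member spots, a copy of Chrna7, beside 4.61% of all spots. Against the pool, 0 of 15 member spots passed in SDHD-ESR (0.0427% of all spots did) and 0 of 15 in +/- (0% of all spots). At an unadjusted p of 0.05 or less 1 of 15 member spots was found in SDHD-ESR (17.4% of all spots) and 0 of 15 in +/- (19.0% of all spots). None of the 10 member spots with a ratio on all 8 arrays had groups that did not overlap, while 2.29% of all such spots did. Over the 7 genes the differences ran from -0.46 for Chrna4 to 1.65 for Chrna5, with 5 lower and 2 higher in SDHD-ESR and a median of -0.11. Over all 19420 genes 11025 were lower and 8395 higher, with a median of -0.05. The median over these 7 subunits was -0.22, -0.06, 0.28 and 0.09 on +/- arrays 1 to 4 and -0.07, 0.06, 0.02 and -0.14 on SDHD-ESR arrays 1 to 4, so the groups overlapped. In whole tissue, fewer chromaffin cells and less RNA per cell cannot be told apart.

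**Figure D1:**
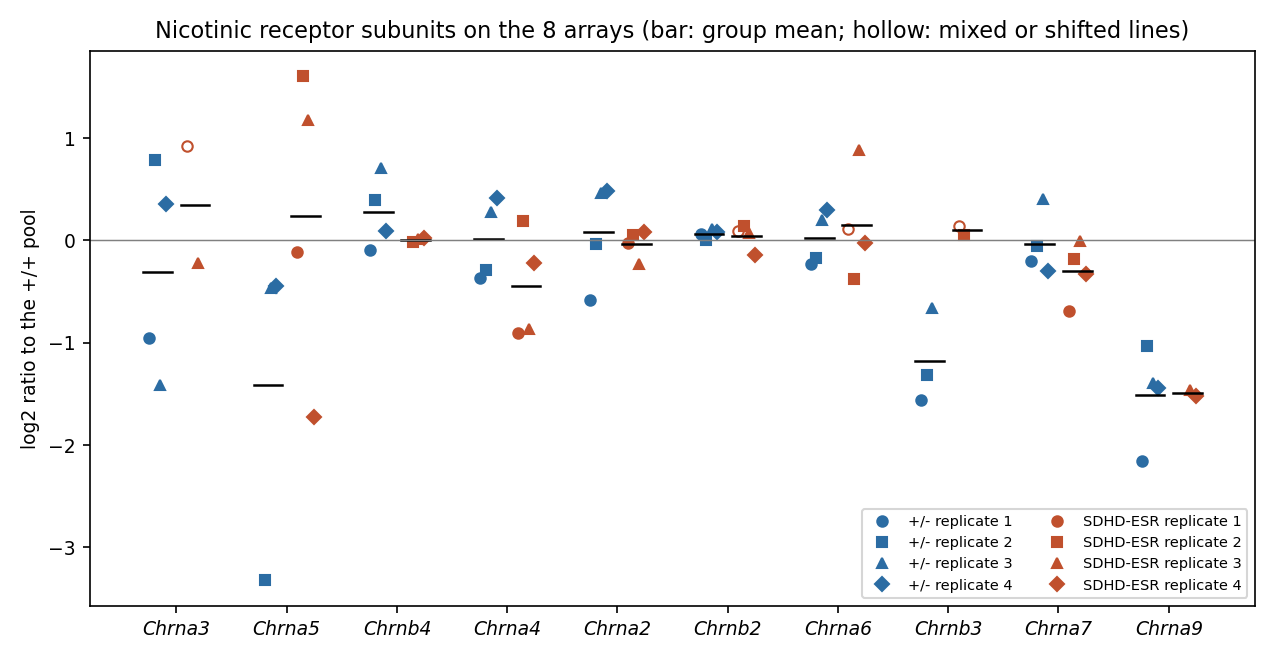
Log2 ratio to the +/+ pool (vertical axis) of each subunit gene (horizontal axis) on the 4 +/- arrays (blue) and the 4 SDHD-ESR arrays (orange), with a bar at the group mean, the median over its copies for Chrna7, and hollow points for a value of SDHD-ESR replicate 1 from mixed or shifted lines. The Chrna7 point of that array is drawn solid, although some of its copies lie in such lines. Chrna9 lay below -1 on all 6 arrays that measured it, Chrna5 spread from -3.32 to 1.61, and Chrnb2 stayed between -0.14 and 0.14.

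Chrna3, the agonist-binding α subunit of the main chromaffin cell receptor, could not be compared firmly. It read -0.95, 0.78, -1.41 and 0.35 on +/- arrays 1 to 4. In SDHD-ESR it read 0.92 on replicate 1 and -0.22 on replicate 3, and whole numbers stood in its place on replicates 2 and 4. The groups overlapped and the +/- arrays alone spanned more than the SDHD-ESR arrays. With 2 values in a group allowed, the difference was 0.66 (SE 0.75, 95% interval -1.21 to 2.52, adjusted p = 0.953 in limma over 30575 spots). The exact permutation p was 0.533, and 4 against 2 arrays cannot go below 0.0667. The value of replicate 1 lies in the shifted lines. Moved back it read -0.68, and the difference became -0.14, so the direction for Chrna3 is not settled.

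Chrnb4, the partner of Chrna3 that sets the opening and agonist profile of that receptor, read -0.10, 0.40, 0.71 and 0.09 on +/- arrays 1 to 4. On SDHD-ESR arrays 2, 3 and 4 it read -0.01, 0.02 and 0.02, and replicate 1 held a whole number. The 3 SDHD-ESR values were almost equal to the pool and fell within the wider range of the +/- arrays. The difference was -0.27 (SE 0.22, 95% interval -0.80 to 0.26, adjusted p = 0.953 in limma). The mean ratio was 0.27 ± 0.35 (SD, n = 4) in +/- and 0.01 ± 0.02 (SD, n = 3) in SDHD-ESR. The exact permutation p was 0.343 over 35 splits. The difference was -0.12 without +/- replicate 3, -0.17 within the first slide, which held replicates 1 and 2 of both groups, and -0.38 within the second.

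Chrna5, an accessory subunit that joins α3β4 receptors without binding acetylcholine itself, showed the widest spread. It read -3.32, -0.47 and -0.44 on +/- arrays 2, 3 and 4, all below the pool. On +/- replicate 1 the deposited value was the whole number 1, which as a true ratio would read -1 after turning and would make the difference below 1.54. On SDHD-ESR arrays 1 to 4 it read -0.11, 1.61, 1.17 and -1.73, on both sides of the pool. The lowest SDHD-ESR value lay between the +/- values. The ratio on +/- replicate 2 equals that of 1 to 10 in lowest terms, and the units behind it are not known. The difference of 1.65 (SE 1.05, 95% interval -0.86 to 4.15) had an unadjusted p of 0.162 and an adjusted p of 0.953 in limma, and the exact permutation p was 0.200. It came to 4.07 within the first slide, with 1 +/- array, and to 0.18 within the second, and without +/- replicate 2 it was 0.69. The spot lies in lines that are in place.

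Chrna7, whose subunit forms a calcium-permeable channel by itself and responds to choline, was the subunit measured by 10 copies. The median over its copies was -0.20, -0.06, 0.41 and -0.30 on +/- arrays 1 to 4, and -0.69, -0.18, -0.00 and -0.32 on SDHD-ESR arrays 1 to 4. All 4 SDHD-ESR medians lay below the pool, as did 3 of the 4 +/- medians, and the groups overlapped. Their difference was -0.26 (SE 0.21, n = 4 arrays in each group, exact permutation p = 0.343), with -0.31 within the first slide and -0.22 within the second. It was -0.11 without +/- replicate 3, -0.13 without SDHD-ESR replicate 1 and -0.13 with the mean in place of the median over copies. Other alternatives took it further from 0, to -0.36 without SDHD-ESR replicate 3, -0.35 without +/- replicate 4 and -0.34 with the shifted lines moved back. In SDHD-ESR the mean corresponded to 81.3% of the pool and in +/- to 97.5%.

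The copies of Chrna7 differed among themselves by more than the groups did. Their SD on 1 array was between 0.27, on SDHD-ESR replicate 3, and 1.09, on SDHD-ESR replicate 2, where 1 copy read 2.76 and another -1.13. On +/- replicate 4 they ran from -2.54 to 0.22. Among the 387 accessions with 10 or more spots, 53.5% to 87.1% had a smaller SD than Chrna7, depending on the array, with the lowest share on SDHD-ESR replicate 3. Over its 9 tested copies the difference between the groups ran from -1.25 to 0.81, with 3 copies lower and 6 higher. The copy with an unadjusted p under the threshold read -0.25, -0.09, 0.26 and 0.22 in +/- and -0.99, -1.13, 0.02 and -0.45 in SDHD-ESR. That copy lies in lines that are in place, and its groups overlapped. Its difference was -0.67 (SE 0.28, 95% interval -1.32 to -0.02, unadjusted p = 0.045, adjusted p = 0.953 in limma). Of the 3 copies in the shifted lines, moved back, the differences were 0.25, 0.66 and -0.45, the last with an unadjusted p of 0.035. The copy described before them had the smallest adjusted p against the pool in SDHD-ESR, at 0.192 (unadjusted p = 0.013 in limma), among the member spots with at least 3 values in each group.

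**Figure D2:**
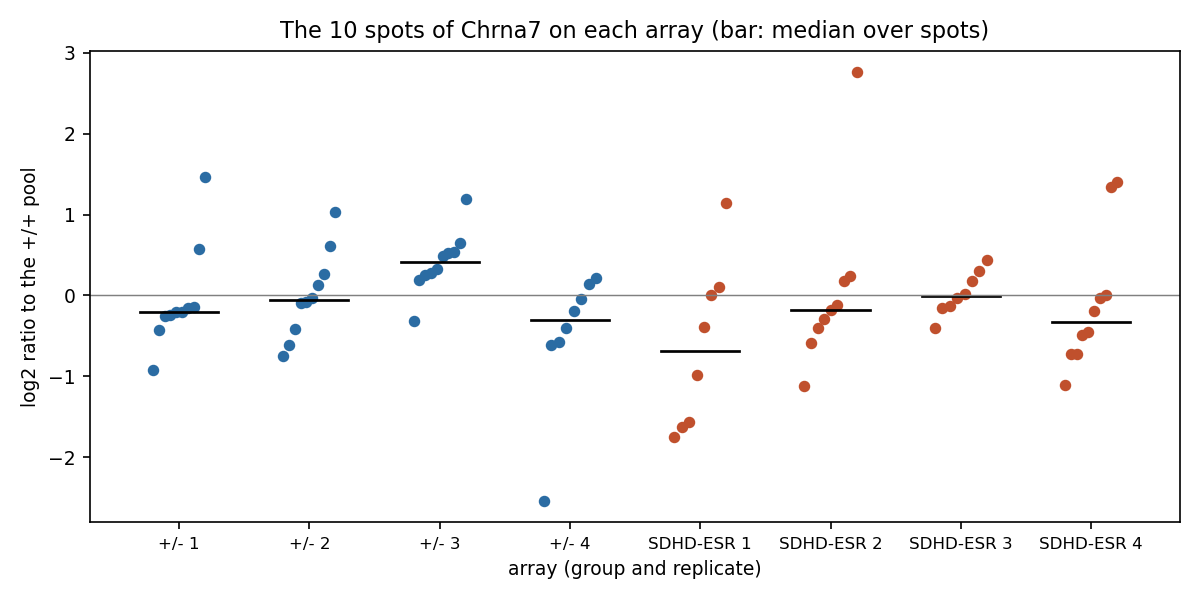
Log2 ratio to the +/+ pool (vertical axis) of each copy of Chrna7 on each array (horizontal axis, +/- blue and SDHD-ESR orange), sorted within the array, with a bar at the median over copies; copies without a ratio are left out. The medians lie between -0.69 and 0.41 while the copies of 1 array spread over as much as 3.89 between -1.13 and 2.76.

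Chrna4 and Chrnb2 encode the α4 and β2 subunits of the high-affinity nicotine receptor of the brain. Chrna4 read -0.37, -0.29, 0.28 and 0.42 on +/- arrays 1 to 4 and -0.90, 0.19, -0.86 and -0.22 on SDHD-ESR arrays 1 to 4. SDHD-ESR replicates 1 and 3 lay below every +/- array, and the other 2 within their range. The difference was -0.46 (SE 0.31, 95% interval -1.18 to 0.27, adjusted p = 0.953 in limma, exact permutation p = 0.200). Within the slides it was -0.02 and -0.89.

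Chrnb2 was the steadiest subunit. It read 0.06, 0.01, 0.11 and 0.09 on +/- arrays 1 to 4 and 0.09, 0.14, 0.08 and -0.14 on SDHD-ESR arrays 1 to 4. All arrays lay close to the pool, and SDHD-ESR replicate 4 was the lowest. The difference was -0.03 (SE 0.12, adjusted p = 0.996 in limma), with a 95% interval from -0.31 to 0.26, and it turned to 0.03 after centring each array on its median or after quantile normalization. The value of SDHD-ESR replicate 1 lies in the shifted lines. Moved back it read -0.31, and the difference was then -0.13.

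Chrna2, an α subunit known from a few groups of interneurons, read -0.58, -0.04, 0.46 and 0.49 on +/- arrays 1 to 4 and -0.03, 0.06, -0.23 and 0.08 on SDHD-ESR arrays 1 to 4. All SDHD-ESR values fell inside the range of the +/- arrays. The difference was -0.11 (SE 0.26, 95% interval -0.71 to 0.48, adjusted p = 0.980 in limma). Its direction differed between the slides, at 0.32 and -0.55.

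Chrna6, an α subunit of dopamine and noradrenaline neurons, read -0.23, -0.17, 0.20 and 0.29 on +/- arrays 1 to 4 and 0.11, -0.38, 0.89 and -0.03 on SDHD-ESR arrays 1 to 4. The highest and the lowest value were both in SDHD-ESR. The difference was 0.12 (SE 0.29, 95% interval -0.54 to 0.79, adjusted p = 0.980 in limma), and without SDHD-ESR replicate 3 it was -0.12. The value of SDHD-ESR replicate 1 is from the mixed lines.

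Chrnb3, an accessory subunit that often joins α6, read -1.55, -1.32 and -0.66 on +/- arrays 1, 2 and 3 and 0.14 and 0.05 on SDHD-ESR arrays 1 and 2, and whole numbers stood on the other 3 arrays. These values did not overlap. With 2 values in a group allowed, the difference was 1.28 (SE 0.34, unadjusted p = 0.016, adjusted p = 0.949 in limma), and the exact permutation p was 0.200, where 3 against 2 arrays cannot go below 0.100. The SDHD-ESR replicate 1 value is in the shifted lines and read -2.58 when moved back, below every +/- value, which took the difference to -0.08. The ratios of Cy5 to Cy3 in +/- equal, in lowest terms, those of 16 to 47, 43 to 107 and 12 to 19, and that of SDHD-ESR replicate 2 equals 27 to 26. The units behind them are not known, and the ratio of SDHD-ESR replicate 1 was not of this kind. Most Chrnb3 ratios were thus of the kind that dim spots give, and without SDHD-ESR replicate 1 a lone SDHD-ESR value remained.

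**Figure D3:**
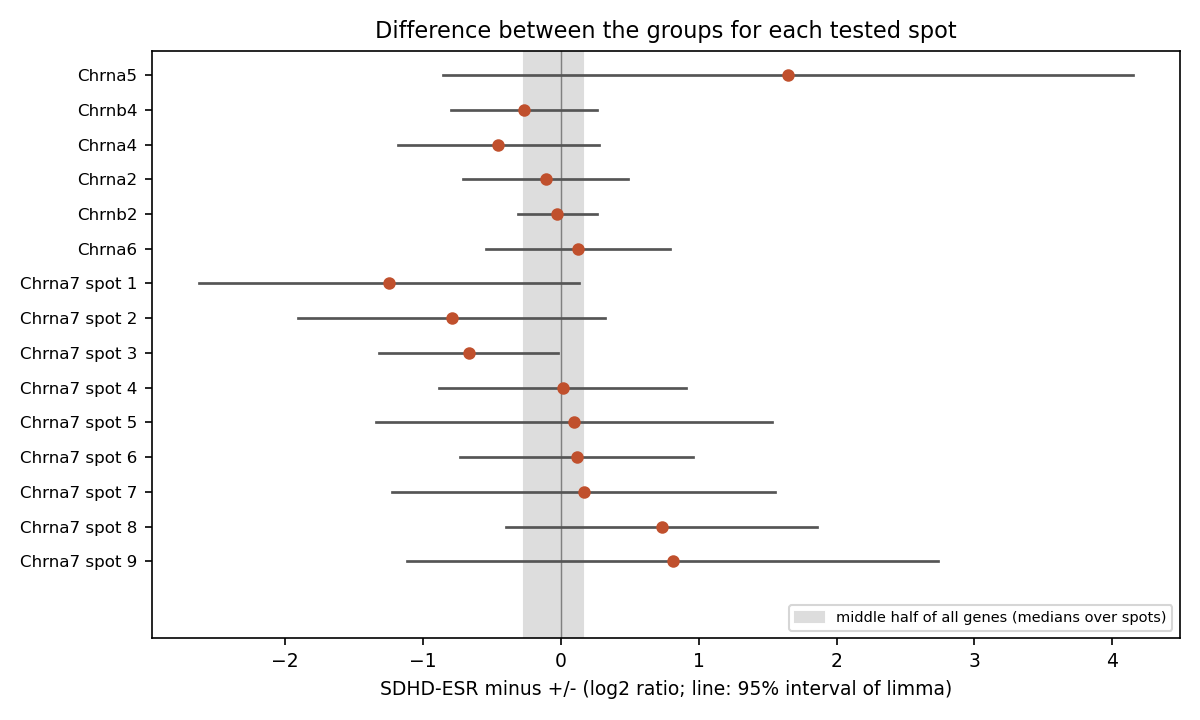
Difference SDHD-ESR minus +/- in log2 ratio (horizontal axis) for each of the 15 tested member spots (vertical axis), with the 95% interval of limma as a line and the middle 50% of all genes as a grey band, from -0.27 to 0.16. Each interval except that of 1 Chrna7 copy crosses 0, and the interval of Chrna5 is the widest.

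Chrna9, which forms the acetylcholine receptor of cochlear hair cells and is known from chromaffin cells of the rat, lay below the pool on every array that measured it. It read -2.16, -1.03, -1.39 and -1.44 on +/- arrays 1 to 4 and -1.46 and -1.52 on SDHD-ESR arrays 3 and 4. The SDHD-ESR values fell inside the range of the +/- arrays, and the difference was 0.02 (SE 0.34, 95% interval -0.84 to 0.87, adjusted p = 1.000 in limma with 2 values in a group allowed). The mean corresponded to 35.2% of the pool in +/- and 35.6% in SDHD-ESR. Against the pool the same fit gave unadjusted p = 0.00039 for +/- and 0.0023 for SDHD-ESR, and adjusted p = 0.132 and 0.139, so neither passed. On SDHD-ESR arrays 1 and 2 the deposited values were the whole numbers 1 and -154. The first could be a true ratio of 2 to 1, which turned would read -1 and would not change the direction. The ratios equal, in lowest terms, those of 28 to 125, 22 to 45, 8 to 21 and 7 to 19 in +/- and 4 to 11 and 15 to 43 in SDHD-ESR, and the units behind them are not known. The median of such ratios was below that of other spots on every array, from -0.68 to -0.09, and Chrna9 lay further below the pool than that median on each of the 6 arrays. The part of dimness and of dye bias in the Chrna9 ratio was not tested.

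**Figure D4:**
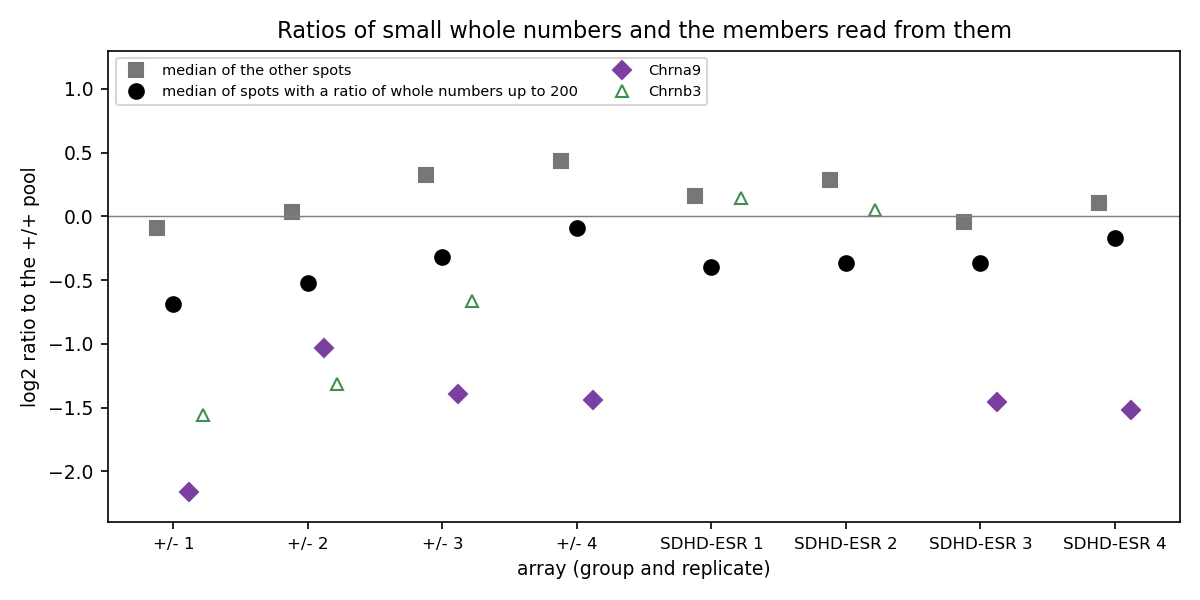
Median log2 ratio to the +/+ pool (vertical axis) on each array (horizontal axis) over the spots whose ratio is that of whole numbers up to 200 (black circles) and over the other spots (grey squares), with Chrna9 (diamonds) and Chrnb3 (triangles, hollow). The black circles lie below the grey squares on all 8 arrays, and the 6 values of Chrna9 lie below the black circles.

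Patterns across arrays were compared for Chrna3 and Chrnb4 as a description. Over the 6 arrays with a Chrna3 ratio, the genes most like it among 16315 were 4930549C15Rik (Pearson r = 0.99), Gm13275 (r = 0.98) and Gm8350 (r = 0.98), and over the 7 arrays with a Chrnb4 ratio they were Rbfox1 (r = 0.98), Olfr617 (r = 0.98) and Kcnq1 (r = 0.96). The Chrna3 pattern includes the value of SDHD-ESR replicate 1 from the shifted lines, which may belong to another spot. The best of 16315 values over so few arrays is high by selection, and all ratios share the pool. Chrna3 and Chrnb4 themselves had 5 arrays in common.

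The 6 other nicotinic subunit genes, those of the muscle receptor and Chrna10, the partner of Chrna9 in hair cells, were all measured and tested. Of these 0 passed, 5 were higher and 1 lower in SDHD-ESR, and their median difference was 0.21. Chrng, the fetal muscle subunit, differed by 1.35 (SE 0.65) and Chrna10 by 1.17 (SE 0.58), both with adjusted p = 0.953 in limma, and the lower gene was Chrnb1 of the muscle receptor (adjusted p = 0.953). Of 5 muscarinic receptor genes, which couple acetylcholine to G proteins, 3 were tested and 0 passed, with Chrm3 at -0.71 (SE 0.38), Chrm4 at 0.48 (SE 0.35) and Chrm1 at -0.36 (SE 0.32) for the spot with its smallest p.

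Of 17 genes for receptor assembly and modulation, such as the chaperones Ric3 and Tmem35a and the Ly6 proteins that bind nicotinic receptors, 16 were tested, 8 of them lower and 8 higher, with a median difference of 0.04 and 0 past the adjusted threshold. At an unadjusted p of 0.05 or less, which 4.61% of all spots reached, 2 genes had a higher spot and 0 a lower one, both of them Ly6 proteins with several spots tested. Lypd6 differed by 1.57 (SE 0.36, unadjusted p = 0.0027, adjusted p = 0.953 in limma) at 1 of its spots and by -0.30 at the other, so its spots disagreed. Lypd6b differed by 1.03 (SE 0.31, unadjusted p = 0.014) at a spot in the shifted lines, and over 5 tested spots of 10 by 0.02 to 2.71. Agrn, which gathers receptors at the nerve-muscle synapse, differed by -0.50 (SE 0.26) at 1 spot and by 0.84 at the other.

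Among 8 genes for acetylcholine synthesis, transport and breakdown, 7 were tested, with 0 past the adjusted threshold and a median difference of -0.14. Colq, the collagen tail that anchors acetylcholinesterase, differed by 0.52 (SE 0.22, unadjusted p = 0.049 in limma), and Ache, the esterase itself, by -0.63 (SE 0.28, unadjusted p = 0.056 in limma), both at spots in the shifted lines. The other spot of Colq differed by 0.63 and that of Ache by -0.22. Bche, the related butyrylcholinesterase, differed by -0.60 (SE 0.51). A further list of 12 genes was drawn up for the region of Chrna5, Chrna3 and Chrnb4. RefSeq places Psma4 before Chrna5 and Ube2q2 after Chrnb4, and of these Psma4 is on the list and Ube2q2 is not. The positions of the other listed genes in the mouse were not checked, so the list does not describe the locus. Of its genes 11 were measured and tested, 7 lower and 4 higher, with a median of -0.02. Hykk, a hydroxylysine kinase, differed by 2.16 (SE 0.92, unadjusted p = 0.053), the retinoic acid carrier Crabp1 by -0.36 (SE 0.24) and the metalloprotease Adamts7 by -0.35 (SE 0.25), and 0 passed. The spot of Crabp1 lies in the mixed lines and that of Adamts7 in the shifted lines.

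No marker in the 6 cell type lists passed the adjusted threshold between the groups. The counts of directions below stand beside 11025 lower and 8395 higher of all 19420 genes. Of 18 measured chromaffin cell markers 11 were lower and 7 higher, with a median difference of -0.11. In 7 of them, Th, Dbh, Chga, Chgb, Scg2, Npy and Cyb561, all 4 +/- ratios lay within 0.05 of 0, so that their signs say little, and of the other 11 markers 9 were lower and 2 higher, with a median of -0.32 (a split chosen after seeing the data). Their smallest p values were those of Syt1 (-0.54, SE 0.21), Hand2 (-0.32, SE 0.16) and Insm1 (-0.59, SE 0.31), the last at a spot in the mixed lines. Of 12 adrenal cortex markers 6 were lower and 6 higher, with a median of 0.05. Star, Cyp11a1, Cyp11b1, Nr5a1, Mrap and Fdx1 lay within 0.05 of 0 on all +/- arrays, and of the other 6 markers 2 were lower and 4 higher, with a median of 0.23. The smallest p was that of Mc2r (0.55, SE 0.21, adjusted p = 0.953 in limma), followed by Cyp21a1 (0.51, SE 0.28) and Cyp11b2 (-0.79, SE 0.58). That spot of Cyp21a1 lies in the shifted lines, and the other spot of the gene differed by 0.09. The ratios do not show levels, so the labelled tissue could not be checked by the presence of its markers. The spot of Scg2 of the chromaffin list and 1 of the 2 spots of Star of the cortex list were within 0.01 of 0 on all 8 arrays. Of the 22801 spots with a ratio on every array 0.776% were so. Whether such spots were at the scanner's ceiling was not tested.

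All 14 tested leukocyte markers were lower in SDHD-ESR, with a median difference of -0.60, and 8 of them had at least 1 spot at an unadjusted p of 0.05 or below, beside 4.61% of all spots, while 0 passed the adjusted threshold. Some of these have several spots, such as Rac2 and C1qc with 10 each, so the count of genes and the share of spots are unlike measures. Cd68, the remaining gene of the 15 listed, had 2 ratios in SDHD-ESR, too few to be tested, and was higher there by 0.11. The list was chosen with earlier results of these data known. Tyrobp, Fcer1g, Rac2, C1qa, Arhgdib and Selplg are among the genes that the paper reports as affected in these SDHD-ESR samples. The counts are therefore no independent evidence. The median over the list ran from -0.21 to 0.20 on the +/- arrays and from -0.68 to -0.33 on the SDHD-ESR arrays. Tyrobp differed by -0.77 (SE 0.19), C1qc by -0.67 (SE 0.17) and Rac2 by -0.74 (SE 0.21), each at the spot with its smallest p. The spots of C1qc ran from -1.27 to -0.28 and those of Rac2 from -0.78 to -0.23. All 9 adipose markers were lower too, with a median of -1.14, and their median ran from -0.98 to 1.02 in +/- and from -1.45 to 0.21 in SDHD-ESR. Ucp1 differed by -2.49 (SE 1.01), Lpl by -1.33 (SE 0.64) and Lep by -0.52 (SE 0.27), each at the spot with its smallest p. The spots of Ucp1 and Lpl lie in the shifted lines and that of Lep in the mixed lines. Over its 10 tested spots Lep ran from -0.52 to 0.17, and its median over spots differed by -0.21. The Schwann cell list was lower in 6 of 7 genes, at a median of -0.27 (S100b at -0.89, SE 0.39, Gfap at -0.93, SE 0.74, Mag at -0.27, SE 0.26). The spots of Gfap ran from -1.30 to 0.11, and that of Mag lies in the shifted lines. The endothelial list was lower in 9 of 10, at -0.18 (Cdh5 at -0.53, SE 0.23, Tie1 at -0.41, SE 0.19, Emcn at -0.57, SE 0.28). Of all 19420 genes 11025 were lower, at a median of -0.05. The part of these cell types in the subunits' ratios was not tested.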

How the data were processed

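The deposited values are log2 ratios of the fluorescence of 2 channels, 1 for each of 45220 spots and 8 arrays, which the authors made with a GenePix scanner and Multi-Experiment Viewer. How background and dyes were treated before deposit is, in the sources used here, not given. The unit was recorded as other, since the columns also hold whole numbers of a size that no log ratio has. The base of the logarithm was read from the data: 37.5% of 5000 values drawn are the log2 of a ratio of whole numbers up to 200, against 0.2% with base 10. Arrays limit the precision by their number.

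Names were assigned by grid position, since the deposited order is not that of the probe annotation. In the layout used, the median SD within 387 repeated accessions was 0.119, against 0.639 or more in 8 other layouts. The sign was turned and whole numbers were left out. Spots with a symbol and at least 3 values in each group (28073 of 33026) were fitted in limma 3.58.1 (lmFit, eBayes, group means, R 4.3.3) with Benjamini-Hochberg adjustment over all of them. On simulated data the fit was tested for recovery of known changes. Medians over a gene's spots were compared by exact two-sided permutation tests over all splits of the arrays (70 for 4 against 4) with Python 3.11.15. Replicates are arrays of separate pairs of mice. Named are all 10 members, Sdhd, up to 3 genes per list by the smallest p between groups, and 3 genes most like Chrna3 and Chrnb4. The members and lists were chosen with earlier results of these data known. Alternatives were other normalizations, value filters, slide and replicate blocks, robust eBayes, the methods' t-test, shifted lines moved back and leaving out each array. Promoter sequences are from RefSeq (GRCm38.p6).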

Additional observations from a re-analysis of the deposited data

How the results depend on the processing

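The count of member spots called stayed at 0 in all 3 comparisons under every alternative run, while the counts over all spots went up to 1 for SDHD-ESR minus +/- (centring), 485 for SDHD-ESR against the pool (12 before) and 833 for +/- against the pool (0 before), both after quantile normalization. The smallest adjusted p of a member spot ranged from 0.635 to 1.000 between the groups, from 0.0987 to 0.489 for SDHD-ESR and from 0.124 to 0.475 for +/- against the pool. The median difference over the 7 subunits (-0.11) ranged from -0.32 to -0.011 when 1 array was left out, was 0.068 within the first slide and -0.22 within the second, -0.05 after centring and -0.00 over all 10 genes with 2 values in a group allowed. Directions turned for Chrna2 (-0.11, 0.32 within the first slide, and -0.33 to 0.022 with 1 array left out, above 0 without +/- replicate 3 or 4), for Chrna3 (0.66, -0.14) and Chrnb3 (1.28, -0.084) with shifted lines moved back, for Chrna6 (0.12, and -0.12 to 0.30, below 0 without SDHD-ESR replicate 3), for Chrna9 (0.02, and -0.20 to 0.17, below 0 without +/- replicate 1 or SDHD-ESR replicate 3) and for Chrnb2 (-0.03, 0.033 after centring, 0.031 after quantile normalization, 0.081 within the first slide, and -0.058 to 0.035 with 1 array left out, above 0 without SDHD-ESR replicate 4). The cause was not tested. Arrays of the 2 groups that share a replicate number correlated by 0.08, 0.12, -0.00 and 0.03 in their deviations from the group means. Arrays with different numbers correlated by -0.14 to 0.05. These values cannot settle whether the numbers pair the arrays, since part of SDHD-ESR replicate 1 is out of place. With the replicate block the counts of member spots called were again 0, the median difference was -0.11 and the Chrna9 difference was -0.073. Few ratios limit Chrna3, Chrna9 and Chrnb3, with 2 in SDHD-ESR. Dim spots may limit Chrna5, Chrna9 and Chrnb3, where 4 of 5 or all ratios were of small whole numbers. Leaving out markers near 0 on all +/- arrays moved the median of the chromaffin list from -0.11 to -0.32 and of the cortex list from 0.05 to 0.23, an alternative added after seeing the data.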
